A study of Mus musculus with 2 samples.

Results

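Otos, Coch, Otor, Ppp1r1a, Emilin2 and Ucma are 6 genes described in cochlear fibrocytes, the connective tissue cells of the lateral wall and spiral limbus. They were taken by symbol, and each symbol matched 1 row of the 32285 genes in each of the 2 deposited matrices. The set was chosen by earlier readings of their levels in these libraries, so their high levels in fibrocyte-related cells are given as a description and support nothing. Single cells of the sensory epithelium of the inner ear cochlea were captured from C57BL/6J mice aged 4 to 6 weeks with a droplet 3′ kit (10x Genomics, version 3.1), which counts unique molecular identifiers (UMIs) per gene. The Drug-NIHL library pooled 5 ears given the drug at 90 mg/ml and then noise. The NIHL library pooled 5 contralateral ears of those mice, which had the noise and no drug. In both groups the noise was an octave band of 8 to 16 kHz at 105 dB for 2 hours, and tissue was taken 2 days afterwards. The title of the series gives the drug as VPA, and the sources used here name neither its route nor whether it reached the other ear. Ears without noise were not analysed here. Each group is 1 pooled library of ears from the same mice, so no test between the groups was possible. All intervals are 95% intervals that cover counting error alone, not the spread between ears or mice.

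Fibrocytes of the spiral ligament recycle potassium from the organ of Corti toward the stria vascularis through pumps and gap junctions, and they lay down the extracellular matrix that anchors the lateral wall. Several of their abundant products are small secreted proteins. Otos encodes otospiralin, a short secreted protein of fibrocytes whose loss in mice impairs hearing. Coch encodes cochlin, a matrix protein with LCCL and von Willebrand factor A domains that is mutated in an inherited form of human hearing loss. Otor encodes otoraplin, a secreted relative of the melanoma inhibitory activity protein MIA. Emilin2 encodes a glycoprotein of elastin microfibrils known in the basilar membrane, and Ucma encodes a gamma-carboxylated matrix protein first known from cartilage. Ppp1r1a departs from the others, since it encodes inhibitor-1 of protein phosphatase 1, an intracellular regulator activated by protein kinase A.

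On GRCm38 with the GENCODE M21 annotation, used here for coordinates alone, all 6 are protein-coding genes. Otos (ENSMUSG00000044055) lies on the minus strand at chr1:92644218-92648841, Coch (ENSMUSG00000020953) on the plus strand at chr12:51593341-51605771, and Otor (ENSMUSG00000027416) on the plus strand at chr2:143078473-143081713. Ppp1r1a (ENSMUSG00000022490) lies on the minus strand at chr15:103530279-103538003, Emilin2 (ENSMUSG00000024053) on the minus strand at chr17:71252172-71311978, and Ucma (ENSMUSG00000026668) on the plus strand at chr2:4976122-4985748. Emilin2 overlaps Gm26561 on the opposite strand, and no source used here says if counting took strand into account. The 120 bases before the RefSeq start on GRCm38.p6 are shown for Otos, Coch, Otor and Ucma. These genes encode secreted proteins, and their start regions are set side by side. Each is written 5′ to 3′ on the gene's own strand, at chr1:92648842-92648961 (minus) for Otos, chr12:51593221-51593340 (plus) for Coch, chr2:143078273-143078392 (plus) for Otor and chr2:4976002-4976121 (plus) for Ucma, and capitals mark a TATAAA match.
Otos: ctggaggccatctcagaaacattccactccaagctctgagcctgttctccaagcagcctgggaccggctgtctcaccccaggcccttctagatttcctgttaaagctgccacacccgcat
Coch: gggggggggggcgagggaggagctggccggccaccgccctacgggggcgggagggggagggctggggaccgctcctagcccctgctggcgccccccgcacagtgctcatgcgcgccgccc
Otor: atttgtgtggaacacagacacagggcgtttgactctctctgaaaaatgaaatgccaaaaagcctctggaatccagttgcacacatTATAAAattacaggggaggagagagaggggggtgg
Ucma: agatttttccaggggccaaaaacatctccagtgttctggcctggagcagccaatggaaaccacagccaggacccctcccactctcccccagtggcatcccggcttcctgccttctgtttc

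The stretches differ in base composition. The Coch stretch was 81.7% G or C with 11 CpG pairs, while the Otos stretch was 56.7% with 2, the Ucma stretch 57.5% with 1 and the Otor stretch 45.8% with 1. The median over 32851 RefSeq promoters of the same length was 54.2% with 3 CpG pairs. Of 3 motifs searched on both strands, TATAAA was found once, on the gene's strand of Otor, with its leading base 35 bases before the start. It occurs in 6.34% of the 32851 promoters on either strand. The octamer ATGCAAAT (0.792% of promoters), a motif of POU factors such as the fibrocyte marker Pou3f4, and the T-box half-site GGTGTGA (1.495%) were in none of these windows. None of the 3 motifs overlaps another in the windows shown. A match is a description of letters and not a bound site.

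The Drug-NIHL file held 21773 barcodes and 39939170 UMIs, and the NIHL file 18545 barcodes and 38380393 UMIs, where the labels state about 20000 recovered cells from both groups. After filters on genes, UMIs, mitochondrial share and predicted doublets, 17536 Drug-NIHL cells and 16618 NIHL cells were kept, with median depths of 1128.5 and 1128 UMIs. Doublet calls removed 12.9% of Drug-NIHL and 4.62% of NIHL barcodes, and the median mitochondrial share was 6.72% and 4.86%. The libraries shared 111 barcode sequences. Levels are in CPM, which scales the UMIs of a gene to the UMIs of all genes in the same cells of the same library. Clusters were made without the 6 genes, and a cluster was named only from markers that exclude them. The 3 clusters named fibrocyte-like held 2040 Drug-NIHL and 1355 NIHL cells, with median depths of 1269.5 and 1441 UMIs. The 13 listed fibrocyte markers summed to 6428 CPM in Drug-NIHL and 4831 CPM in NIHL fibrocyte-like cells, against 801 CPM in both libraries in cells outside these and the Emilin2/Otor cluster that had no Otos.

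The fibrocyte-like clusters are called here by their leading genes. The Slc4a11/Gm525 cluster held 684 Drug-NIHL and 111 NIHL cells, or 33.5% and 8.19% of the class, and expressed 7 of the 13 markers, among them the membrane transporter gene Slc4a11 and the connexin genes Gjb2 and Gjb6. The Inmt/Coch cluster held 1072 and 1001 cells, 52.5% and 73.9% of the class, with 6 markers including the methyltransferase gene Inmt and the water channel gene Aqp1. The Fxyd2/Kcnk2 cluster held 284 and 243 cells, with 6 markers including the potassium channel gene Kcnk2. Another cluster, led by Emilin2, Aard and Otor, held 1012 and 749 cells. It carried 3 fibrocyte markers, Pou3f4, Tbx18 and Kcnk2, and 3 of strial basal cells, Cldn11, Tjp1 and Nr2f2, with none of either among its 10 leading genes. It stays unnamed and is called the Emilin2/Otor cluster. The remaining 14484 Drug-NIHL and 14514 NIHL cells are called other cells. They include a cluster led by Slc47a1 and Penk that carried the 3 fibrocyte markers Gjb2, Gjb6 and Slc4a10, again with none among its 10 leading genes. Osteoblast or osteocyte-like cells carried 4, Cemip, Inmt, Aqp1 and Car3. A cluster led by Slc6a13 and Ranbp3l carried 3, Gjb2, Gjb6 and Cemip, and strial intermediate-like cells carried 3, Gjb2, Gjb6 and Slc12a2.

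The 6 genes were not all highest in the same cluster. Otos was highest in the Slc4a11/Gm525 cluster, at 7557 CPM in Drug-NIHL and 13303 CPM in NIHL cells. It stood at 2003 CPM in Drug-NIHL and 1093 CPM in NIHL cells of the Inmt/Coch cluster, and at 2373 and 732 CPM in the Fxyd2/Kcnk2 cluster. In the Emilin2/Otor cluster it stood at 101 CPM in Drug-NIHL and 88.8 CPM in NIHL cells, so the highest and lowest of the 4 clusters were the same in both libraries and the middle places were not. The fibrocyte-like class held 80.4% (79.8 to 81.0) of all Otos UMIs of the Drug-NIHL library and 74.7% (73.7 to 75.7) of those of the NIHL library.

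Coch was detected in a larger share of cells than Otos in each of the 4 clusters. It stood at 14928 CPM in Drug-NIHL and 14062 CPM in NIHL cells of the Slc4a11/Gm525 cluster, and at 15170 and 12666 CPM in the Inmt/Coch cluster. It stood at 1845 CPM in Drug-NIHL and 1503 CPM in NIHL cells of the Fxyd2/Kcnk2 cluster, and at 2401 and 1888 CPM in the Emilin2/Otor cluster. The Slc4a11/Gm525 and Inmt/Coch clusters thus carried levels several times those of the other clusters in both libraries. Coch was detected in 87.6% of Drug-NIHL and 81.3% of NIHL fibrocyte-like cells, and in 81.8% and 71.6% after thinning each cell to 1000 UMIs. Of the Coch UMIs, 78.5% in Drug-NIHL and 67.9% in NIHL lay in the fibrocyte-like class, and 7.60% and 9.56% in the Emilin2/Otor cluster.

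Otor, the otoraplin gene, had most of its UMIs in the Emilin2/Otor cluster, 54.5% in Drug-NIHL and 62.1% in NIHL. Its level there was 1176 CPM in Drug-NIHL and 1237 CPM in NIHL cells. In the Slc4a11/Gm525 cluster it was 382 CPM in Drug-NIHL and 1375 CPM in NIHL cells, so in the NIHL library this smaller cluster reached the level of the Emilin2/Otor cluster. In the Inmt/Coch cluster Otor stood at 517 CPM in Drug-NIHL and 295 CPM in NIHL cells, and in the Fxyd2/Kcnk2 cluster at 115.5 and 94.9 CPM. Together the 4 clusters held 90.2% of the Otor UMIs of Drug-NIHL and 86.0% of those of NIHL.

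Emilin2 was the most restricted within these cells. The Emilin2/Otor cluster held 78.7% of its UMIs in Drug-NIHL and 82.2% in NIHL, at 1859 and 1771 CPM, and it was detected in 75.1% and 72.6% of the cells there. In the Inmt/Coch cluster it stood at 111 CPM in Drug-NIHL and 45.1 CPM in NIHL cells. In the Slc4a11/Gm525 cluster it had 19 UMIs in 9 of 684 Drug-NIHL cells and 0 UMIs in 111 NIHL cells. By 3 counts that allows a level of up to 13.4 CPM and a UMI in up to 2.70% of cells, which limits cells with a UMI and not cells that express the gene. The Otor and Emilin2 pair was detected together in 43.4% of Drug-NIHL and 41.9% of NIHL cells of the Emilin2/Otor cluster. In that cluster Otos was found in 8.10% of Drug-NIHL and 3.07% of NIHL cells, below its share of 9.14% and 3.99% in other cells, and this was read as background.

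Ppp1r1a, the phosphatase inhibitor gene, followed Otos to the Slc4a11/Gm525 cluster, at 2428 CPM in Drug-NIHL and 1567 CPM in NIHL cells. It stood at 634 CPM in Drug-NIHL and 650 CPM in NIHL cells of the Fxyd2/Kcnk2 cluster, and at 115 and 39.8 CPM in the Inmt/Coch cluster. Ucma was highest in the Slc4a11/Gm525 cluster too, at 771 CPM in Drug-NIHL and 3622 CPM in NIHL cells. In the Inmt/Coch cluster it stood at 172 CPM in Drug-NIHL and 106 CPM in NIHL cells, in the Fxyd2/Kcnk2 cluster at 111 and 86.6 CPM, and in the Emilin2/Otor cluster it had 11 UMIs in 3 cells and 8 UMIs in 2 cells. The plot of levels by cluster shows Otos, Ppp1r1a and Ucma low in the Emilin2/Otor cluster and Otor and Emilin2 high in it.

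**Figure D1:**
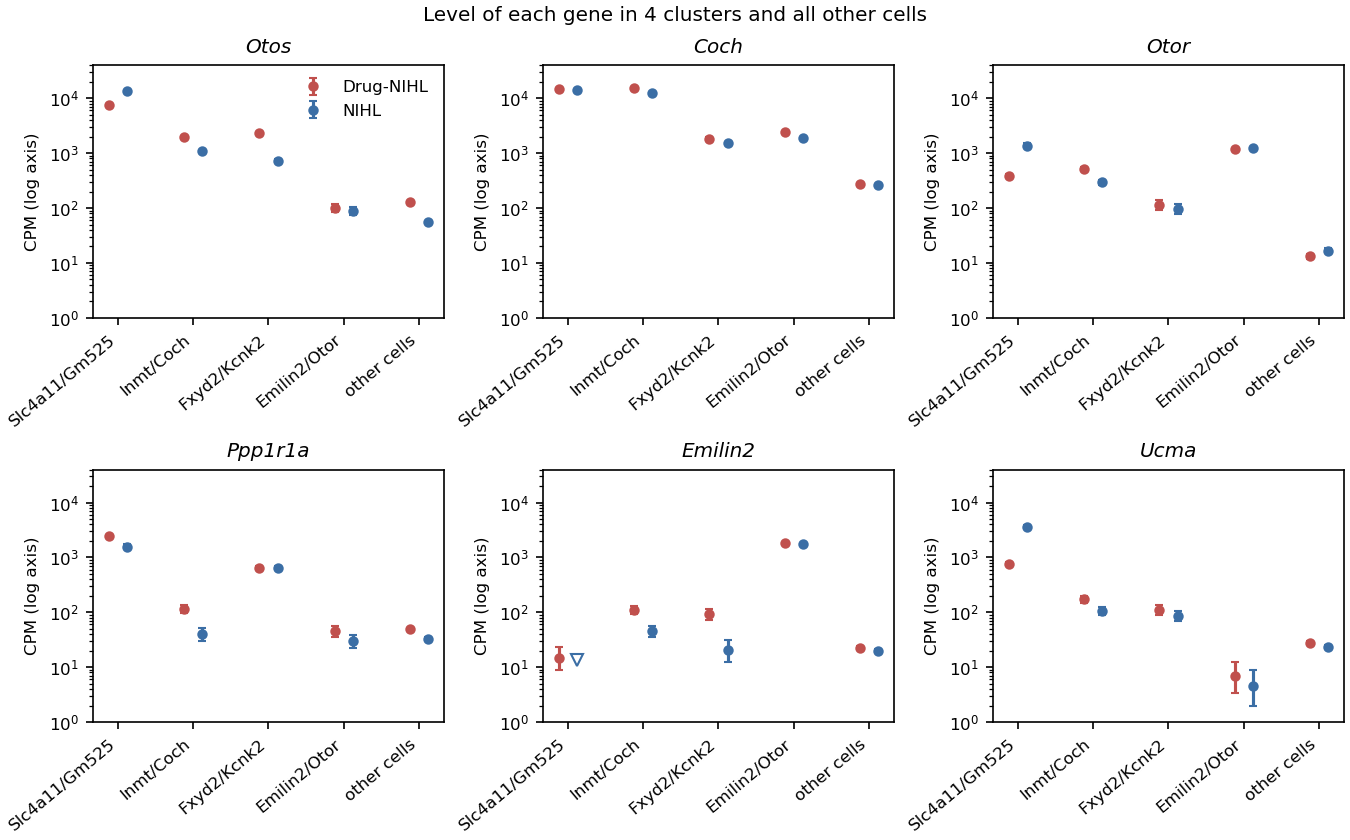
Level of each gene in CPM (log axis) in 4 clusters named by 2 of their leading genes and in all other cells, for Drug-NIHL (red, left) and NIHL (blue, right). Bars are 95% Poisson intervals for counting error and the open triangle marks the level that 3 counts would give where 0 UMIs were found. Emilin2 peaks in the Emilin2/Otor cluster (1859 and 1771 CPM), Otos, Ppp1r1a and Ucma peak in the Slc4a11/Gm525 cluster, and Otor peaks in the Emilin2/Otor cluster in Drug-NIHL (1176 CPM) and in the Slc4a11/Gm525 cluster in NIHL (1375 CPM).

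Finer clustering divided these cells further, and the division differed most between the libraries in the Slc4a11/Gm525 cluster. Of its Drug-NIHL cells 82.3% fell in a subcluster led by Slc4a11, Gm525 and Msx3 and 15.6% in one led by Ucma and Cited4, whereas 31.5% and 67.6% of its NIHL cells did. The Inmt/Coch cluster gave 68.0% of Drug-NIHL and 69.6% of NIHL cells to a Coch/Tgfbi subcluster, 24.6% and 25.1% to one led by Fst and Moxd1, and 4.38% and 2.80% to the Fxyd2/Nat8f1 subcluster. The Fxyd2/Kcnk2 cluster gave 62.0% of Drug-NIHL and 65.0% of NIHL cells to the Fxyd2/Nat8f1 subcluster and 38.0% and 34.6% to the same Ucma/Cited4 subcluster. The Emilin2/Otor cluster gave 67.3% of Drug-NIHL and 55.4% of NIHL cells to an Emilin2/Notum subcluster and 32.1% and 44.5% to a Ccl11/Aard subcluster.

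The levels differed among these subclusters. Otos stood at 5966 CPM in Drug-NIHL and 13072 CPM in NIHL cells of the Slc4a11/Msx3 subcluster. It stood at 6002 and 4593 CPM in the Ucma/Cited4 subcluster and at 6124 and 2218 CPM in the Fxyd2/Nat8f1 subcluster. In CPM these levels were thus close together in Drug-NIHL and far apart in NIHL. A single NIHL cell held 39.5% of the Otos UMIs of the Fxyd2/Nat8f1 subcluster, and another 30.6% of those of the Slc4a11/Msx3 subcluster. The shares of cells with Otos were apart in both libraries. In the same order of subclusters they were 67.1%, 40.9% and 34.9% in Drug-NIHL and 54.3%, 32.2% and 24.1% in NIHL. Ucma peaked in the Ucma/Cited4 subcluster, at 1525 CPM in 220 Drug-NIHL cells and 1842 CPM in 174 NIHL cells, and no other subcluster exceeded 628 CPM. Coch was highest in the Coch/Tgfbi subcluster, at 18696 CPM in Drug-NIHL and 15362 CPM in NIHL cells, and lowest in the Ccl11/Aard subcluster at 479 and 342 CPM. On its own the Coch/Tgfbi subcluster stayed unnamed, although the Inmt/Coch cluster that holds its cells was named fibrocyte-like. Otor was at 1786 CPM in Drug-NIHL and 2195 CPM in NIHL cells of the Emilin2/Notum subcluster, and at 118 and 180.0 CPM in the Ccl11/Aard subcluster beside it. Otor therefore marked 1 side of the Emilin2/Otor cluster. Emilin2 reached both sides, at 2522 CPM in Drug-NIHL and 2825 CPM in NIHL cells of the Emilin2/Notum subcluster and at 719 and 576 CPM in the Ccl11/Aard subcluster. Emilin2 had 0 UMIs in both libraries in the Ucma/Cited4 subcluster.

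**Figure D2:**
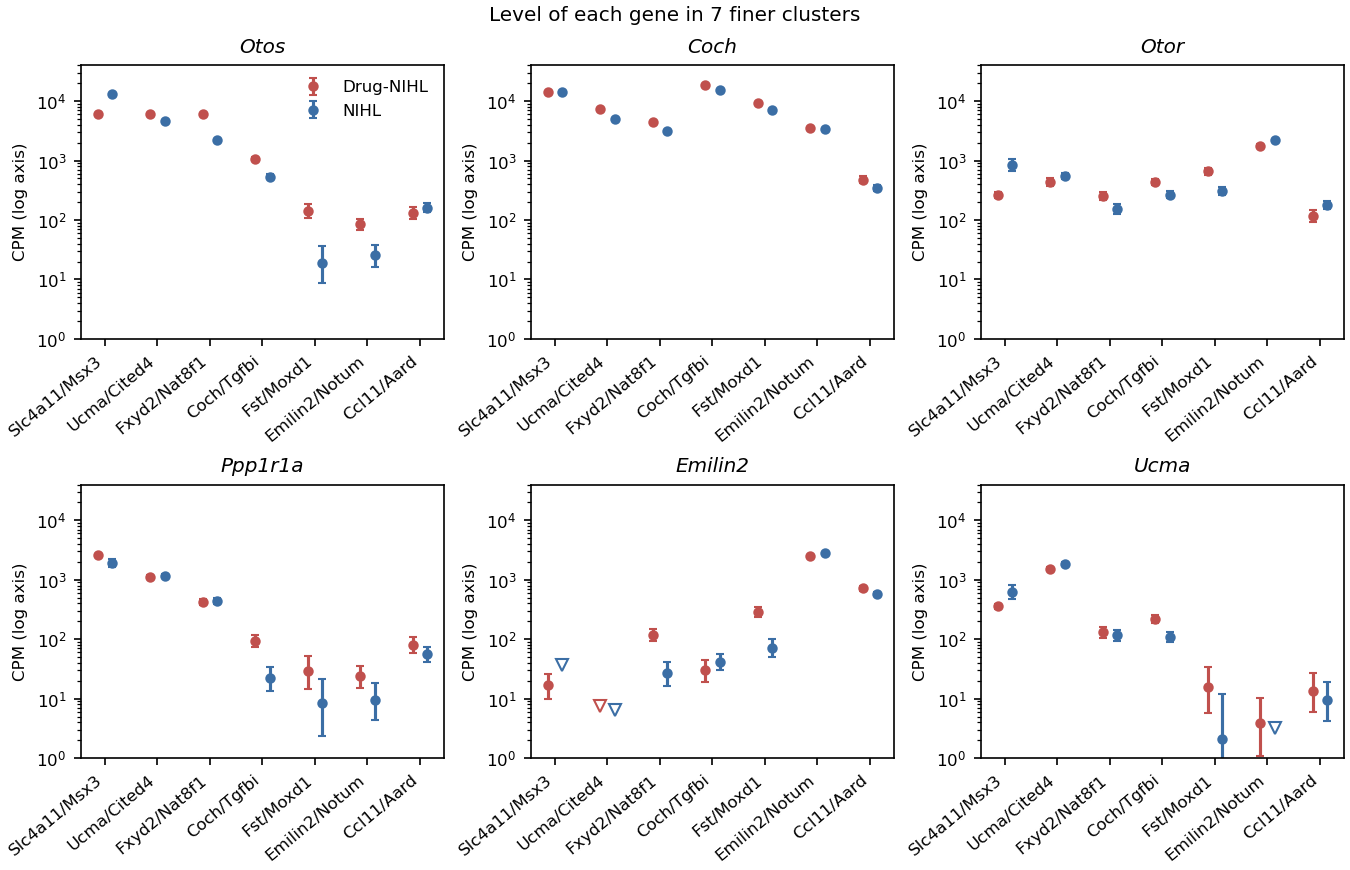
Level of each gene in CPM (log axis) in 7 finer clusters named by 2 leading genes, for Drug-NIHL (red, left) and NIHL (blue, right), with 95% Poisson intervals for counting error and open triangles at the level of 3 counts where 0 UMIs were found. Ucma peaks in the Ucma/Cited4 cells at 1525 and 1842 CPM, and Otos is spread over the Slc4a11/Msx3, Ucma/Cited4 and Fxyd2/Nat8f1 cells.

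Within a cluster the genes differed in how evenly cells carried them. Coch was broad in the Slc4a11/Gm525 cluster. Its cells had a median of 22 Coch UMIs in Drug-NIHL and 20 in NIHL. The 10% of cells with the most Coch held 27.3% and 34.1% of its UMIs. That share was 40.8% and 39.3% in the Inmt/Coch cluster. In the Fxyd2/Kcnk2 cluster it was 65.4% and 59.9%, and in the Emilin2/Otor cluster 62.6% and 63.3%, with a median of 1 Coch UMI in both clusters. Otos was concentrated in few cells. In the Slc4a11/Gm525 cluster the median was 2 Otos UMIs per cell in Drug-NIHL and 1 in NIHL. The highest cell had 470 and 331, and the top 10% of cells held 74.5% of the UMIs in both libraries. Cells with at least 10 Otos UMIs numbered 157 in Drug-NIHL and 30 in NIHL in this cluster, 23 and 15 in the Inmt/Coch cluster, 16 and 14 in the Fxyd2/Kcnk2 cluster, and 4 and 1 in the Emilin2/Otor cluster.

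The Otos level of the Inmt/Coch cluster rested on those few cells. A single cell held 553 of its 2547 Otos UMIs in Drug-NIHL and a single cell 652 of 1647 in NIHL, which is 21.7% and 39.6%. The share of Inmt/Coch cells with an Otos UMI was 13.9% in Drug-NIHL and 5.99% in NIHL, inside the range seen across clusters of other cells (4.59% to 15.2% and 2.36% to 8.59%). Expression in the other Inmt/Coch cells was therefore not read from this share. In the Slc4a11/Gm525 cluster Otos and Coch were found together in 66.7% of Drug-NIHL and 53.2% of NIHL cells, and Otos and Ppp1r1a in 58.2% and 44.1%. Otos and Ucma were found together in 17.7% of Drug-NIHL and 38.7% of NIHL cells of that cluster.

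Free RNA in droplets gives stray UMIs to cells that do not express a gene. Outside the 4 clusters, Otos was found in 9.14% (8.68 to 9.62) of Drug-NIHL cells and 3.99% (3.68 to 4.32) of NIHL cells. Endothelial-like cells, which are not known to make otospiralin, had an Otos UMI in 7.37% of Drug-NIHL and 4.29% of NIHL cells at median depths of 1099 and 1508 UMIs. The endothelial-like shares were 9.39% in Drug-NIHL and 5.13% in NIHL for Coch, and at most 2.35% and 1.12% for each of the other 4 genes. These are far below the 87.6% and 81.3% of fibrocyte-like cells with Coch. Schwann or satellite glia-like cells had an Otos UMI in 8.89% of Drug-NIHL and 3.31% of NIHL cells. Across the 29 other clusters with at least 50 cells in each library the Otos share was low and alike, with medians of 9.48% in Drug-NIHL and 4.29% in NIHL. After thinning to 1000 UMIs, which left out 6507 Drug-NIHL and 6773 NIHL cells, the share in other cells was 6.06% and 2.52%.

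The Otos share in other cells barely moved with depth. It was 8.78%, 9.64%, 8.91% and 10.2% in Drug-NIHL cells with 500 to under 1000, 1000 to under 2000, 2000 to under 5000 and at least 5000 UMIs, and 3.53%, 4.21%, 4.46% and 4.87% in the same bins of NIHL cells. Of the other cells with Otos, 77.8% in Drug-NIHL and 79.1% in NIHL had exactly 1 UMI, against 37.1% and 41.2% inside the 4 clusters. The Emilin2 share behaved otherwise, going from 0.768% to 6.52% over the bins in Drug-NIHL and from 0.473% to 6.93% in NIHL. The Ppp1r1a share in cells of at least 5000 UMIs was 26.2% in Drug-NIHL and 25.9% in NIHL.

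**Figure D3:**
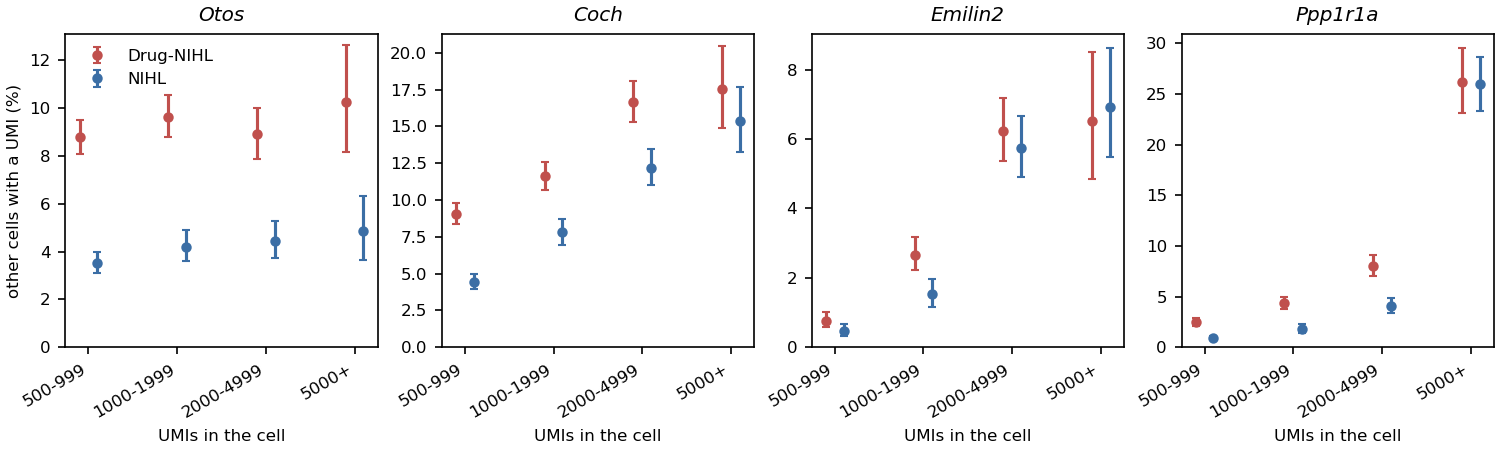
Share of other cells (outside the 4 clusters) with at least 1 UMI of Otos, Coch, Emilin2 or Ppp1r1a, in 4 bins of UMIs per cell, for Drug-NIHL (red, left) and NIHL (blue, right), with exact binomial 95% intervals. Each panel has its own axis from 0. The Otos share stays between 8.78% and 10.2% in Drug-NIHL and between 3.53% and 4.87% in NIHL, while the other shares go up with depth.

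A few other cells carried much of the outside Otos. Cells with at least 10 Otos UMIs numbered 52 in Drug-NIHL and 26 in NIHL, and they held 45.1% and 52.1% of the Otos UMIs outside the 4 clusters. They were scattered over 22 clusters in Drug-NIHL and 17 in NIHL. The fibrocyte markers summed to 3073 CPM in these cells of Drug-NIHL and 2859 CPM in those of NIHL, against 801 CPM in both libraries in other cells with no Otos. Their median depth was 2131 UMIs in Drug-NIHL and 2719 in NIHL, against 1108 and 1065 in cells with no Otos. Whether these droplets held more than 1 cell was not tested. Among the barcodes removed as predicted doublets, 38 of 2597 in Drug-NIHL and 3 of 805 in NIHL had at least 10 Otos UMIs. That is 1.46% and 0.373% of them, against 1.44% and 0.518% of all kept cells.

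Ratios between the genes were set side by side inside and outside the 4 clusters, and not all of them differed beyond counting error. Otos stood at 32.7 UMIs per 100 Coch UMIs inside the 4 clusters and 46.6 (44.7 to 48.6) outside in Drug-NIHL. In NIHL it stood at 20.3 (19.7 to 20.9) and 21.04 (19.9 to 22.2), intervals that overlap. Otor stood at 7.15 per 100 Coch inside and 4.85 outside in Drug-NIHL, and at 11.2 and 6.26 in NIHL. Emilin2 stood at 7.37 per 100 Coch inside and 8.13 outside in Drug-NIHL, and at 11.9 and 7.50 in NIHL. Ppp1r1a and Ucma went the other way from Otor in both libraries. Ppp1r1a stood at 8.78 per 100 Coch inside and 17.9 outside in Drug-NIHL and at 4.04 and 12.3 in NIHL, and Ucma at 2.99 and 10.2 in Drug-NIHL and 3.93 and 8.72 in NIHL. Some of the outside UMIs lay in clusters with higher levels, described next, and their sources were not tested.

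Some clusters of other cells stood above that low common level for single genes. Coch was found in 19.9% of Drug-NIHL and 35% of NIHL cells of a cluster led by Slc6a13 and Ranbp3l, in 26.0% and 21.7% of osteoblast or osteocyte-like cells, in 21.7% and 20.5% of cells led by Slc47a1 and Penk, and in 25.3% and 18.0% of erythroid-like cells. The medians over the 29 clusters were 10.9% in Drug-NIHL and 7.09% in NIHL. Erythroid-like cells were above the medians for Otor, Emilin2, Ppp1r1a and Ucma too, in both libraries. Emilin2, for example, was found in 6.47% of Drug-NIHL and 3.69% of NIHL erythroid-like cells. Otos was found in 11.8% and 3.23% of them, against medians of 9.48% and 4.29%. A single NIHL cell held 28.5% of the Coch UMIs of that group, and whether erythroid-like cells express Coch was not tested. Emilin2 was found in 27.0% of Drug-NIHL and 21.9% of NIHL monocyte or dendritic-like cells, in 15.3% and 31.5% of oligodendrocyte-like cells and in 10.05% and 19.7% of neutrophil-like cells, against medians of 1.77% and 1.60%. The Emilin2 pattern thus reached immune and glial cells, and the gene is not restricted to fibrocytes in these libraries.

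Ppp1r1a was found in 37.4% of Drug-NIHL and 47.4% of NIHL neuron-like cells, whose median depths were 9867 and 12830 UMIs. Thinned to 1000 UMIs its share there was 4.66% and 8.01%, and its level was 49.7 and 68.3 CPM. The Slc6a13/Ranbp3l cells had a higher Ppp1r1a level, at 431 CPM in Drug-NIHL and 412 CPM in NIHL. Ucma was found in 12.7% of Drug-NIHL and 10.3% of NIHL cells of an unnamed cluster led by the supporting cell genes Ceacam16 and Epyc, at 254 and 132 CPM. In astrocyte-like cells Ucma stood at 247 CPM in 255 Drug-NIHL cells, and it had 0 UMIs in the 24 NIHL cells, which allows up to 99.9 CPM. Otor stayed at or below 4.71% of cells in each of the 29 clusters in Drug-NIHL and 3.69% in NIHL, and its highest share in both was in erythroid-like cells.

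**Figure D4:**
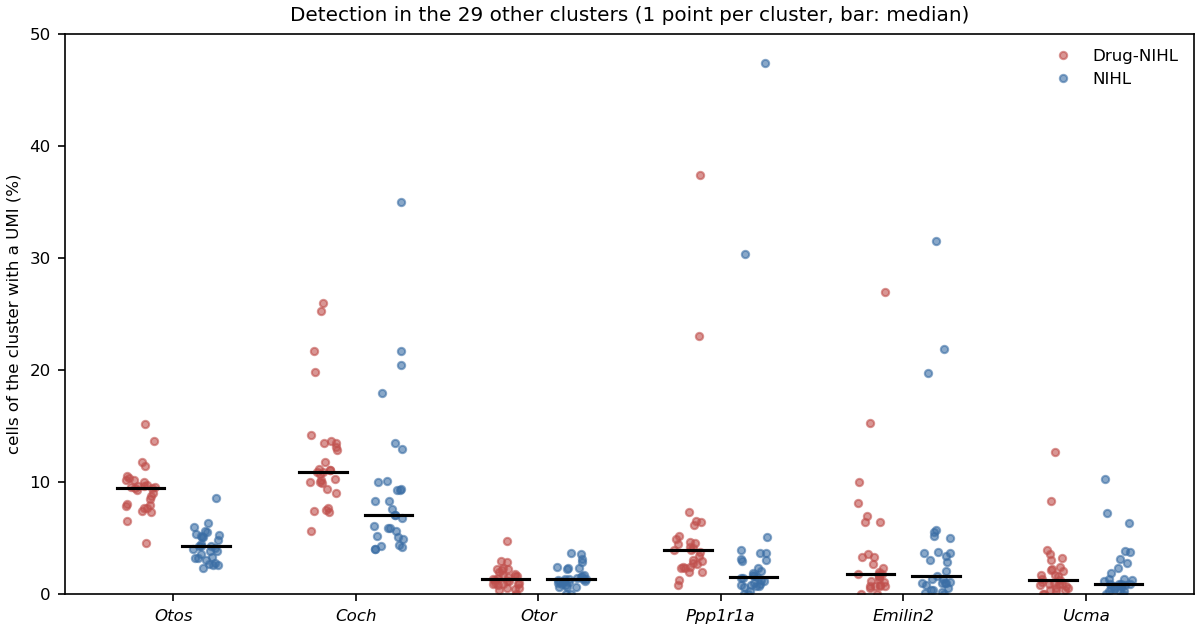
Share of cells with at least 1 UMI of each gene in the 29 other clusters with at least 50 cells in each library, 1 point per cluster, for Drug-NIHL (red, left) and NIHL (blue, right), with the median over clusters as a bar. Otos forms a tight band with medians of 9.48% and 4.29%, whereas Coch, Ppp1r1a, Emilin2 and Ucma each have a few clusters far above their median.

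Over all cells, 3 of the 6 genes were at least 1.5 times higher in the Drug-NIHL library, Otos, Coch and Ppp1r1a, where 5.89% of 17256 genes were. None was at or below 0.667 times, where 3.7% of genes were. Otos stood at 573 CPM in Drug-NIHL and 212 CPM in NIHL, a ratio of 2.71 (2.64 to 2.79). Ppp1r1a stood at 166 CPM in Drug-NIHL and 61.0 CPM in NIHL (2.72, 2.59 to 2.87), and Coch at 1656 and 1033 CPM (1.60, 1.58 to 1.63). The other genes lay nearer to 1. Otor stood at 113 CPM in Drug-NIHL and 104 CPM in NIHL (1.085, 1.04 to 1.14), Emilin2 at 124 and 113 CPM (1.10, 1.05 to 1.15), and Ucma at 66.1 and 51.7 CPM (1.28, 1.20 to 1.36).

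Cell make-up differed beside these ratios. The fibrocyte-like class was 11.6% of Drug-NIHL and 8.15% of NIHL cells, and the Slc4a11/Gm525 cluster 3.90% and 0.668%. With clusters weighted as in the NIHL library, the ratios over all cells were 1.54 for Otos, 1.37 for Ppp1r1a, 1.145 for Coch and 0.691 for Ucma. That left 1 gene past 1.5 times, and the share of all genes past it was not computed with these weights. More cells of a type and more RNA per cell cannot be told apart in a sum over all cells.

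Within the fibrocyte-like class, Otos, Ppp1r1a and Emilin2 were at least 1.5 times higher in the Drug-NIHL library, where 6.72% of 11400 genes were, and none of the 6 was lower by as much, where 8.55% were. Otos stood at 4214 CPM in Drug-NIHL and 1976 CPM in NIHL fibrocyte-like cells (2.13, 2.07 to 2.20) and was detected in 32.9% and 12.1% of them. Ppp1r1a stood at 1123 CPM in Drug-NIHL and 385 CPM in NIHL (2.91, 2.72 to 3.12), detected in 40.3% and 19.9% of cells. Emilin2, at 69.9 CPM in Drug-NIHL and 32.6 CPM in NIHL (2.15, 1.67 to 2.77), rested on 235 and 88 UMIs. Coch had a ratio of 1.355 (1.33 to 1.38), Otor 1.18 (1.08 to 1.29) and Ucma 0.989 (0.911 to 1.07). The median log2 ratio of the 6 genes was 0.77, against -0.06 over all 11400 genes.

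The make-up of the class differed between the libraries beside these ratios, and its part in them was not tested. With the clusters of the class weighted as in the NIHL library, Otos stood at 1.31, Ppp1r1a at 1.28 and Coch at 1.18. Emilin2 at 2.96 was the remaining gene past 1.5 times, and Ucma at 0.511 lay below 0.667. The shares of all genes past these bounds were not computed with these weights. Without the Slc4a11/Gm525 cluster, a choice made after seeing the data, Ppp1r1a stood at 1.13. Under the same choice Otos stood at 2.255, Coch at 1.21, Otor at 1.67, Emilin2 at 2.93 and Ucma at 1.51. With the Emilin2/Otor cluster added to the class, also chosen after seeing the data, Emilin2 stood at 0.901.

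In the Slc4a11/Gm525 cluster the order of the libraries turned for 3 genes. Otos (0.568, 0.545 to 0.592), Otor (0.278, 0.241 to 0.322) and Ucma (0.213, 0.194 to 0.234) were at or below 0.667 times in Drug-NIHL, 3 of 5 genes measured, where 12.1% of 7013 genes were. Ppp1r1a was the 1 gene at least 1.5 times higher, at 1.55 (1.39 to 1.74), where 28.1% of genes were. Coch stood at 1.06 (1.02 to 1.10). The cluster was not the same mixture in both libraries, and the subcluster shares given above differed beside these ratios. Slc4a11 itself stood at 4675 CPM in Drug-NIHL and 1308 CPM in NIHL cells of the cluster, and Gjb2 at 548 and 1536 CPM. Detection of Ucma was 20.9% of Drug-NIHL and 62.2% of NIHL cells, and that of Otor 20.5% and 48.6%. The NIHL side held 111 cells, of which 1 held 11.1% of the Otos and 1 held 11.6% of the Ucma UMIs.

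The subclusters gave these values. In the Slc4a11/Msx3 subcluster, with 563 Drug-NIHL and 35 NIHL cells, the ratio was 0.456 (0.428 to 0.487) for Otos, 0.313 (0.241 to 0.412) for Otor and 0.573 (0.429 to 0.780) for Ucma. A single NIHL cell held 30.6% of the Otos and 55.8% of the Ucma UMIs there, and without the top cell of each library the Otos ratio was 0.598 and the Ucma ratio 1.12. In the Ucma/Cited4 subcluster, with 220 and 174 cells, the ratios were 1.31 (1.23 to 1.39) for Otos, 0.784 (0.643 to 0.955) for Otor and 0.828 (0.745 to 0.920) for Ucma. The Ucma/Cited4 subcluster pools cells of the Slc4a11/Gm525 cluster (107 in Drug-NIHL and 75 in NIHL) and of the Fxyd2/Kcnk2 cluster (108 and 84), so its ratios are not those of Slc4a11/Gm525 cells alone.

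In the Inmt/Coch cluster, 5 of the 6 genes were at least 1.5 times higher in Drug-NIHL, where 7.29% of 9663 genes were, and none was lower by as much, where 7.79% were. Otos stood at 1.83 (1.72 to 1.95) and at 2.37 without the top cell of each library. Otor stood at 1.75 (1.55 to 1.98), detected in 15.5% of Drug-NIHL and 12.3% of NIHL cells. Ppp1r1a (2.88, 2.12 to 3.96), Emilin2 (2.46, 1.83 to 3.33) and Ucma (1.62, 1.32 to 2.00) rested on 60 to 219 UMIs a library. In the Coch/Tgfbi subcluster, which held most of these cells, Otos stood at 1.96 (1.24 without the top cells), Otor at 1.63, Ppp1r1a at 4.24, Ucma at 2.02 and Emilin2 at 0.711 (0.407 to 1.22). In the Fst/Moxd1 subcluster Emilin2 stood at 4.01 (2.71 to 6.08). In other cells the ratio was 2.26 (2.13 to 2.40) for Otos, 1.48 (1.36 to 1.61) for Ppp1r1a, 1.20 (1.08 to 1.33) for Ucma, 1.11 (0.986 to 1.245) for Emilin2 and 0.791 (0.687 to 0.910) for Otor, and the part of free RNA in the cluster's ratios was not tested. Coch, the most evenly carried gene of the cluster, stood at 1.20 (1.17 to 1.22), and at 1.02 (0.989 to 1.055) in other cells. That second ratio rested largely on other cells with at least 10 Coch UMIs. They held 60.0% of the Coch UMIs of other cells in Drug-NIHL and 77.3% in NIHL. The share of other cells with a Coch UMI was not alike, at 11.8% in Drug-NIHL and 7.64% in NIHL.

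In the Fxyd2/Kcnk2 cluster, Otos and Emilin2 were at least 1.5 times higher in Drug-NIHL, where 7.81% of 7769 genes were, and none was lower by as much, where 8.55% were. Otos stood at 3.24 (2.97 to 3.54), with 20.5% of its Drug-NIHL and 13.8% of its NIHL UMIs in 1 cell, and its share of cells was close, 23.2% and 18.1%. Emilin2 stood at 4.52 (2.73 to 7.81) on 75 and 20 UMIs, of which 1 NIHL cell held 50%. Ppp1r1a stood at 0.975 (0.866 to 1.10) and Coch at 1.23 (1.14 to 1.32). Otor (1.22, 0.903 to 1.64) and Ucma (1.28, 0.936 to 1.74) had intervals that included 1.

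In the Emilin2/Otor cluster taken whole, the 2 genes that lead it differed little. Otor stood at 0.9503 (0.893 to 1.01) and Emilin2 at 1.05 (0.998 to 1.10), and both intervals included 1. Ppp1r1a, at 1.52 (1.05 to 2.215) on 72 and 52 UMIs, was the 1 of 5 genes measured at 1.5 times or more, where 4.7% of 9983 genes were, and it stood at 1.26 without the top cell of each library. None was lower by as much, where 8.09% were. Coch stood at 1.27 (1.21 to 1.33). Otos stood at 1.13 (0.904 to 1.42), with 118 of its 157 NIHL UMIs in 1 cell, and at 4.08 without the top cell of each library. In the Emilin2/Notum subcluster Otor stood at 0.8135 (0.763 to 0.867) and Emilin2 at 0.893 (0.845 to 0.943). In the Ccl11/Aard subcluster Emilin2 stood at 1.247 (1.091 to 1.424). Otor stood there at 0.656 (0.4855 to 0.878), and at 0.862 without the top cell of each library. These subcluster intervals did not include 1.

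**Figure D5:**
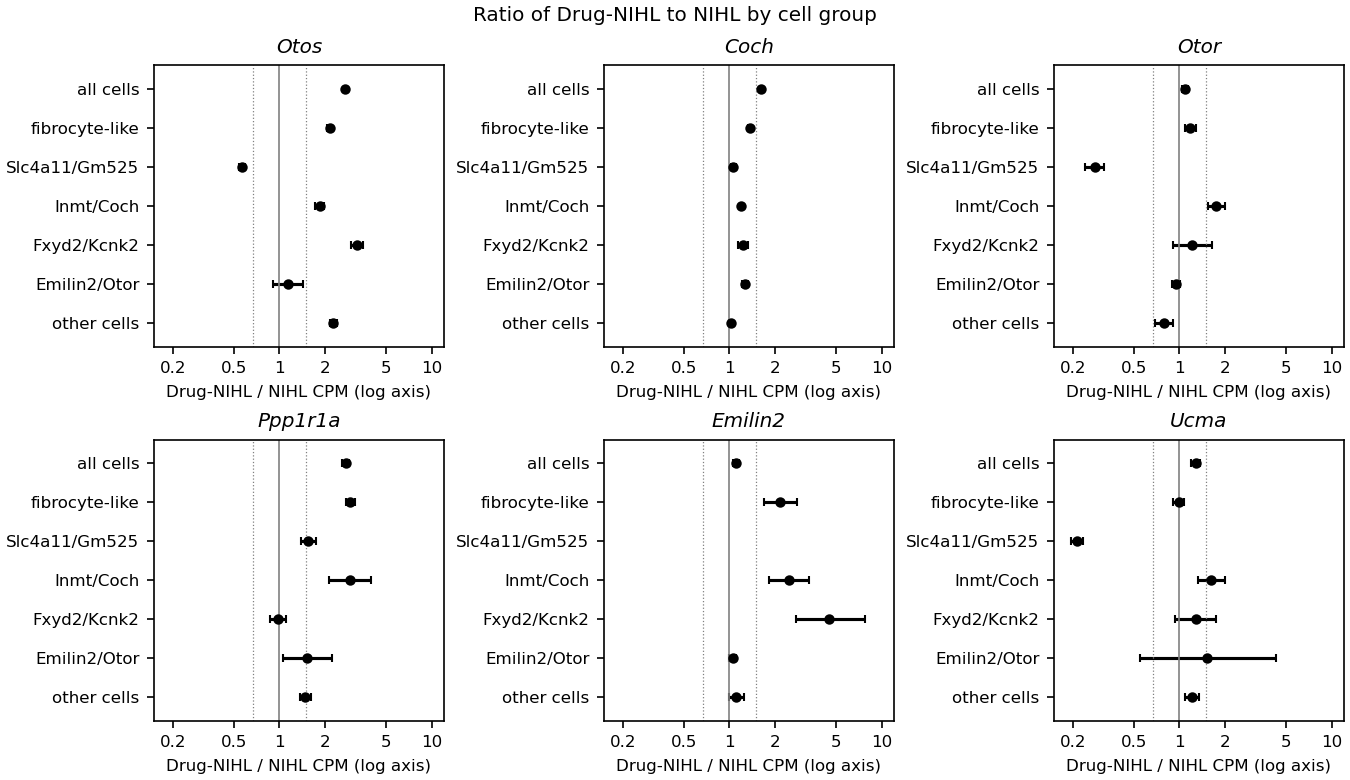
Ratio of Drug-NIHL to NIHL CPM for each gene (log axis) over all cells, in the fibrocyte-like class, in the 4 clusters and in other cells. Bars are 95% intervals for counting error, the solid line marks 1 and dotted lines mark 1.5 and 0.667. Otos lies above 1.5 over all cells (2.71) and below 0.667 in the Slc4a11/Gm525 cluster (0.568), and no point is drawn for Emilin2 there because the NIHL cells had 0 UMIs.

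Other genes of these cells were read from lists by the same ratios, and all counts stand beside the 6.72% of all genes that were higher and the 8.55% that were lower in the class. Of 17 other cochlear fibrocyte genes, all measured in the fibrocyte-like class, 7 were at least 1.5 times higher in Drug-NIHL and 2 were lower by as much, with a median log2 ratio of 0.22 against -0.06 over all genes. These 17 include the 13 fibrocyte markers that named the class, so they are not a set apart from it. Car3, a carbonic anhydrase gene, stood at 1512 CPM in Drug-NIHL and 1300.3 CPM in NIHL (1.16, 1.11 to 1.21), Slc4a11 at 1848 and 125 CPM (14.8, 13.3 to 16.6) and Gjb2 at 873 and 1188 CPM (0.735, 0.699 to 0.773). Slc4a11 led the cluster whose share differed between the libraries. In that Slc4a11/Gm525 cluster 4 of 12 measured genes of the list were higher and 4 lower, where 28.1% and 12.1% of all genes were. In the Inmt/Coch cluster 3 of 14 were higher and 0 lower (7.29% and 7.79% of all genes). In the Fxyd2/Kcnk2 cluster 2 of 13 were higher and 1 lower (7.81% and 8.55%). Of 22 measured genes of the fibrillar and network matrix, 3 were higher and 9 lower in the class, where 6.72% and 8.55% of all genes were, with a median of -0.48. Among them the proteoglycan gene Dcn stood at 0.580, the osteoglycin gene Ogn at 0.857 and the collagen gene Col1a2 at 0.747. In the Slc4a11/Gm525 cluster the list lay low as in the class, with a median of -0.27 against 0.10 over all genes there. Of its 11 measured genes 0 were higher and 4 lower, where 28.1% and 12.1% of all genes were. In the other clusters of the class the list stood otherwise. Its median was -0.03 in the Inmt/Coch cluster (2 of 21 higher, 4 lower) and 0.31 in the Fxyd2/Kcnk2 cluster (2 of 10 higher, 0 lower). The medians over all genes there were -0.03 and -0.01. Of all genes, 7.29% were higher and 7.79% lower in the Inmt/Coch cluster, and 7.81% and 8.55% in the Fxyd2/Kcnk2 cluster. Ogn stood at 1.20 in the Inmt/Coch and 1.03 in the Fxyd2/Kcnk2 cluster.

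Relatives of the 6 genes stood nearer to 1 or lower in the class, where 6.72% of all genes were at least 1.5 times higher and 8.55% lower by as much. Of the MIA family, Mia, Mia2 and Mia3 had ratios of 0.718, 1.11 and 1.17, and none passed 1.5 times. Of the EMILIN family Emilin1 alone was measured in the class, at 0.469 (0.327 to 0.668). Of 6 measured genes with von Willebrand A or LCCL domains near cochlin, 3 were lower and none higher, with Vwa1 at 0.699 and Matn2 at 0.515. The 7 measured genes of protein phosphatase 1 and its regulators were all between the bounds, among them Ppp1r1b, which encodes the related inhibitor DARPP-32, at 0.974 (0.873 to 1.09). Of 8 genes of gamma-carboxylation and Gla proteins none was higher and 1 was lower, with the matrix Gla protein gene Mgp at 0.858.

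The genes most like each member were those with the highest Pearson r of log2(CPM + 10) over 37 clusters with at least 50 cells, both libraries summed, among 10478 genes. The clusters share libraries and free RNA, so r is a description. Otos was most like Gm525 (0.851), Map2k6, Fzd9, Slc4a11 and Apod. Coch was most like Tnfrsf11b (0.880), Apod, Pantr1, Cp and Pou3f4, and Otor was most like Moxd1 (0.881), Emcn, Nkx6-1, Tbx18 and Pantr1. Ppp1r1a was most like Map2k6 (0.824), Pcca, Mapk4, Gm5089 and Fzd9. Emilin2 was most like Epha3 (0.766), Notum, Tex15, Scin and Tnfaip6, and Ucma was most like Fzd9 (0.779), Gm525, Gjb6, Gjb2 and Apod. Among the members themselves r was 0.816 for Otos and Coch, 0.807 for Coch and Otor and 0.631 for Otor and Emilin2, and it was 0.123 for Otos and Emilin2, -0.03 for Ppp1r1a and Emilin2, and -0.03 for Emilin2 and Ucma.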

How the data were processed

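The values deposited by the authors are unnormalized UMI counts in 1 matrix for each library, and per the file headers Cell Ranger 5.0.1 made them. Cell Ranger 5.0, STAR, Seurat 3.2.2, mm10 and GRCm38 are named per the submitters' processing notes. No source used here names the annotation release, and 32235 of 32285 gene IDs were found in GENCODE M21. Barcodes needed 300 genes, 500 UMIs and at most 20% mitochondrial UMIs, and Scrublet calls were removed (scanpy 1.11.5, expected rate 0.08). Cells were clustered without the 6 genes on 3000 variable genes, 30 components and 15 neighbours at resolution 1, with 2.0 for subclusters. A named cluster needed at least 3 of a type's markers at 2 times the other cells in 10% of its cells, and 1 or more among its 10 leading genes, where no other type could have a higher number.

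UMIs were summed per library and cell group, giving CPM with exact Poisson intervals, shares with exact binomial intervals and ratios with exact conditional binomial intervals. Genes needed 20 UMIs in both sums together. The floor against 0 is 3 counts, per library and cell group. The ratio step was tested on simulated counts, where false calls were 3.33% over all cells and 8.11% in the fibrocyte-like class. Simulated counts do not give the spread between ears or mice. The fixed rule named all 6 genes, 5 most like genes each, up to 3 genes with the most UMIs from each of 7 lists, and 5 leading genes per cluster; Slc4a11 and Gjb2 in the Slc4a11/Gm525 cluster, and the clusters of other cells singled out, were chosen after their values were seen. Members and lists were chosen with earlier results of these data known. Alternatives are given at the end, with TMM factors from edgeR 4.0.16 in R 4.3.3. Other tools were matplotlib 3.10.9, igraph 0.11.9, pandas 2.3.3, scipy 1.17.1 and numpy 2.4.6 under Python 3.11.15.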

Additional observations from a re-analysis of the deposited data

Results flagged for a closer look

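The ratio of Drug-NIHL to NIHL went opposite ways in fibrocyte-like clusters for 3 genes, and the differences between the ratios were not tested, since each group is 1 library. Otos stood at 1.83 in the Inmt/Coch cluster and 3.24 in the Fxyd2/Kcnk2 cluster, against 0.568 in the Slc4a11/Gm525 cluster. Otor stood at 1.75 in the Inmt/Coch cluster against 0.278 in the Slc4a11/Gm525 cluster, and Ucma at 1.62 against 0.213. Beside these values, 82.3% of Drug-NIHL and 31.5% of NIHL cells of the Slc4a11/Gm525 cluster fell in its Slc4a11/Msx3 subcluster, and the part of that difference was not tested.

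Barcodes that failed the filters on genes, UMIs or mitochondrial share, 1640 in Drug-NIHL and 1122 in NIHL, were outside the main measurement. In them 3 genes were at least 1.5 times higher in Drug-NIHL, and the share of all genes that were was not computed. Coch stood at 484 CPM in Drug-NIHL and 183 CPM in NIHL, Ppp1r1a at 60.0 and 34.0 CPM, and Emilin2 at 11.5 CPM on 26 UMIs and 2.54 CPM on 5 UMIs (ratio 4.52, 1.71 to 15.1). Otos stood at 605 CPM in Drug-NIHL and 487 CPM in NIHL in these barcodes, a ratio of 1.24 (1.14 to 1.35).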

How the results depend on the processing

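No paired analysis was possible because each group is 1 pooled library, and no test or replicate error could be had. The Otos and Coch ratios stayed above 1 under the 6 alternatives over all cells and the 11 in the fibrocyte-like class, at 1.54 to 2.89 and 1.31 to 2.34 for Otos and 1.145 to 1.78 and 1.09 to 2.02 for Coch. Otor crossed 1, at 0.879 to 1.345 and 0.929 to 1.67. For the values that moved beyond their counting interval, Otos, Coch and Otor are given in this order, and the cause was not tested. With cells of at least 1000 genes the ratios were 2.30, 1.78 and 0.879 over all cells and 2.005, 2.02 and 1.46 in the class, which then held 539 Drug-NIHL and 456 NIHL cells. With clusters weighted as in the NIHL library they were 1.54, 1.145 and 0.969 over all cells, where 1 gene instead of 3 was past 1.5 times. In the class they were 1.31 for Otos and 1.18 for Coch, where 1 gene was past 1.5 times and 1 below 0.667. Neither count has a share of all genes under these weights. With CPM taken cell by cell and averaged, Coch was 1.49 and Otor 1.345 over all cells, and the class gave 2.04, 1.09 and 1.04. With predicted doublets kept, Coch was 1.55 over all cells, and the class gave 1.945, 1.26 and 1.06. With TMM scaling, Coch was 1.63 over all cells, and Otos was 2.25 and Coch 1.43 in the class. Without the top cell of each library, Otos was 2.89 over all cells and 2.33 in the class. At clustering resolution 2.0, where 4 clusters with 1280 Drug-NIHL and 647 NIHL cells were named fibrocyte-like, the class gave 1.86, 1.89 and 1.045. The Coch/Tgfbi subcluster, with 743 Drug-NIHL and 708 NIHL cells, was unnamed at this setting and is not in that class. Clustering with the 6 genes gave 1.05 for Otor. Of alternatives chosen after seeing the data, adding the Emilin2/Otor cluster gave 2.34, 1.46 and 0.929, and turned Emilin2 to 0.901. Leaving out the Slc4a11/Gm525 cluster gave 2.255, 1.21 and 1.67. Over 5 other clusterings or cell filters, the share of Otos UMIs in the class ran from 69.4% to 84.2% in Drug-NIHL and from 67.9% to 75.1% in NIHL, and that of Coch from 49.8% to 77.9% and from 26.1% to 68.2%. The lowest Coch shares were at resolution 2.0, where the Coch/Tgfbi subcluster lay outside the class. Depth limits Emilin2 in fibrocyte-like cells and Ucma in the Emilin2/Otor cluster, which rest on under 250 UMIs a library.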
